A study of Mus musculus with 7 samples.

Results

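The granzymes, perforin and 2 further genes of cytotoxic granules were examined in cultured group 2 innate lymphoid cells (ILC2s) of wild-type and Gfi1 knockout mice. ILC2s are lymphocytes without antigen receptors that make IL-5 and IL-13. The set holds Gzma, Gzmb, Gzmc, Gzmd, Gzme, Gzmf, Gzmk, Prf1, Nkg7 and Ctsw. For these genes every array probe was taken whose transcript accession maps to one of them. This gave 12 probes for the 10 genes, and 8 of the genes were among the 25346 tested of 32585 genes and accessions on the array.

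Wild-type mice were Gfi1+/+. Knockout mice were Gfi1 GFP/GFP, homozygous for an allele in which a GFP cassette at the Gfi1 locus removes the function of this transcriptional repressor and reports its promoter. All mice of both genotypes received IL-25 daily for 4 days, and cells that were Lin-, Sca-1+, ICOS+, CD127+ and c-Kit+ were sorted from mesenteric lymph nodes on day 5. A wild-type sample pooled 3 mice and a knockout sample pooled 6, and neither strain background nor age is given in the labels used here. Sorted cells of both genotypes then spent 6 days in culture with IL-2 and IL-25, each at 50 ng/ml, and IL-7 at 10 ng/ml, so these are expanded, cytokine-stimulated ILC2s rather than freshly isolated cells. The allele is carried in the germline, so Gfi1 function was lost in all cells of the mouse and not in ILC2s alone.

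Cytotoxic granules are secretory lysosomes of natural killer (NK) cells and cytotoxic T cells. Perforin makes pores in a target cell and granzymes, which are serine proteases, enter through them and cleave proteins that start cell death. Granzymes are made as inactive precursors, trimmed by the dipeptidyl peptidase cathepsin C and stored on the proteoglycan serglycin. ILC2s are not classed as cytotoxic lymphocytes, although granzyme transcripts also occur in activated lymphocytes of other kinds.

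There were 4 wild-type and 3 knockout arrays. On each, ILC2 RNA was in the red dye and the green dye held a commercial reference RNA pooled from mouse cell lines, so a value below is the log2 ratio of sample over reference at 1 probe, and a difference is knockout minus wild type. A higher ratio at one gene than at another says nothing of their relative abundance, since each has its own reference level. Fewer cells with a transcript and less transcript per cell cannot be told apart in such bulk RNA. A call is an adjusted p under 0.05 in limma, a linear model with pooled variance, after Benjamini-Hochberg adjustment over all tested genes. The share of probes with a sample signal well above background ran from 67.4% to 80.9% by array, and precision is limited by how few arrays there are. The arrays came from 3 slides: slide 1 held wild-type array 4 and knockout array 1, slide 2 held wild-type array 1 and knockout arrays 2 and 3, and slide 3 held wild-type arrays 2 and 3 only. The Gfi1 probe read 2.02 ± 0.23 (SD, n = 4) in wild type and 4.28 ± 0.02 (SD, n = 3) in knockout, but its position relative to the cassette is not known here, so it checks no label. All 13 ILC2 marker genes listed, among them Gata3, Il5, Il13, Icos and Il17rb, lay above background on all 7 arrays.

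Of the 8 tested cytotoxic granule genes, Nkg7, Ctsw and Gzme were called higher in the knockout and none was called lower, also at an unadjusted p under 0.05. Over all tested genes 829 (3.27%) were called higher and 1071 (4.23%) lower, which is 7.5% in all. At an unadjusted limma p under 0.05, 2286 of all 25346 tested genes were higher and 2670 lower. The same 3 genes were those whose 3 knockout arrays lay outside the range of the 4 wild-type arrays, which was the case for 18.3% of all tested genes. The median difference over the 8 genes was 0.25, against -0.01 over all tested genes. The other 5 (Gzma, Gzmb, Gzmc, Gzmk and Prf1) did not pass the test, and Gzmd and Gzmf were not tested because their signal lay above background on too few arrays. With slide as a fixed block in the model 1 of the 8, Nkg7, was still called higher, beside 0.919% of all tested genes.

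**Figure D1:**
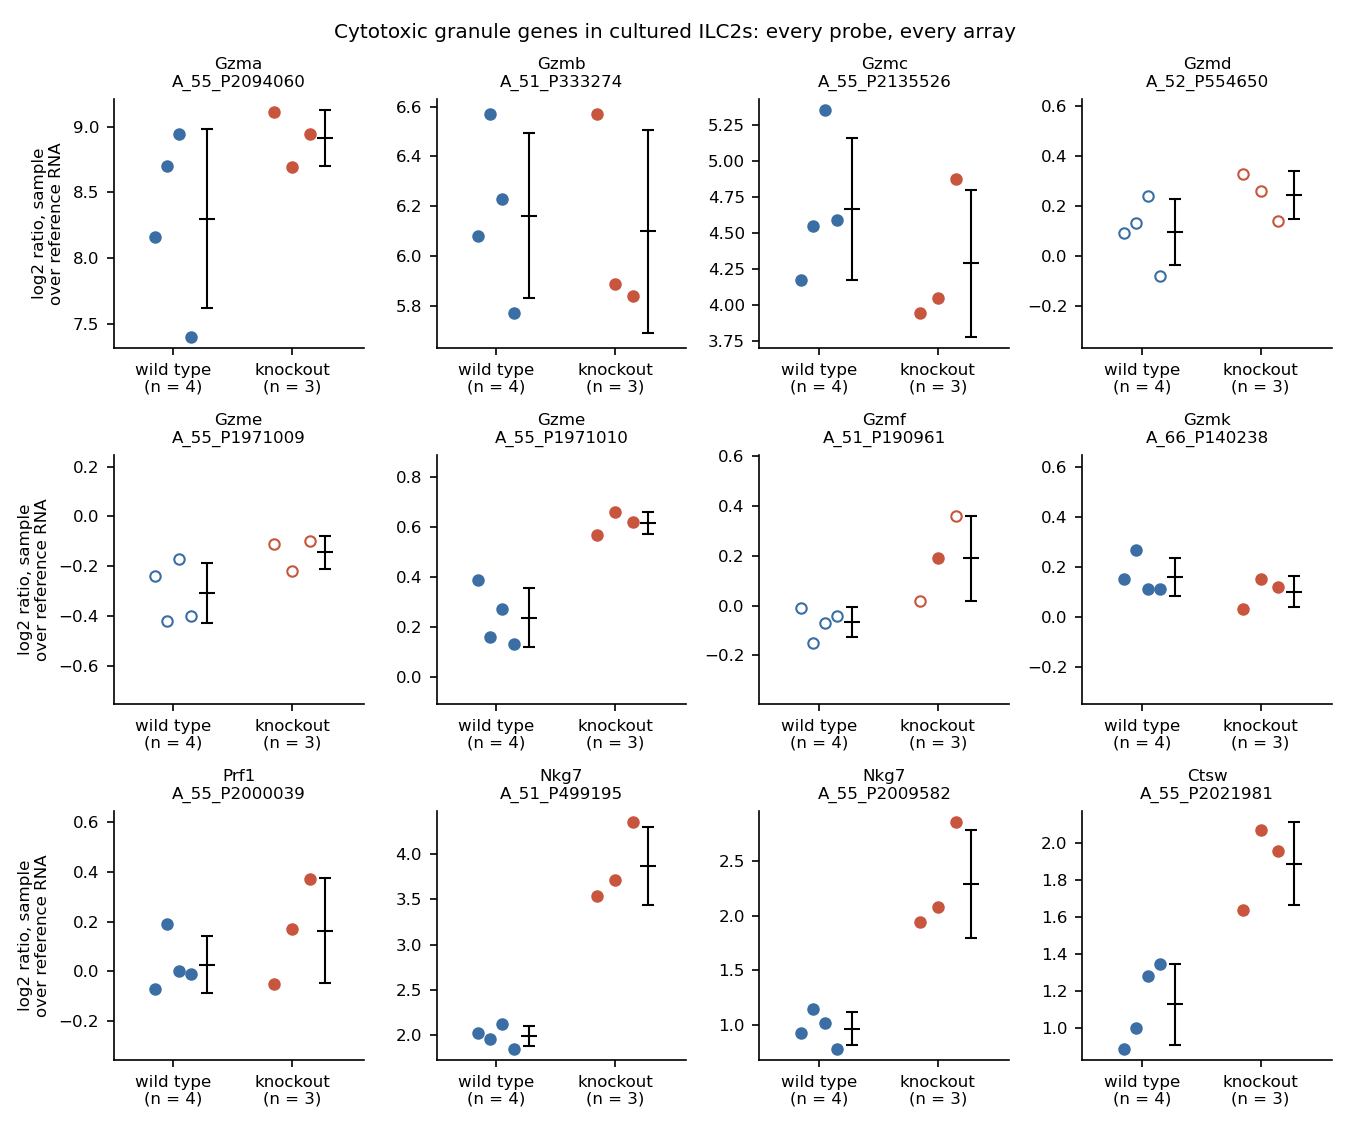
Log2 ratio of sample over reference RNA at all 12 probes of the 10 genes, 1 point per array (4 wild type, blue, and 3 knockout, red), with the mean and SD beside each group and a vertical scale of its own in each panel. Filled points are well above background in the sample channel and open points are not. The groups are apart at both Nkg7 probes, at Ctsw and at the Gzme probe A_55_P1971010, and they overlap at Gzma, Gzmb, Gzmc, Gzmk and Prf1. They are also apart at the Gzmf probe, which was above background on 1 array only.

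Nkg7 encodes a small membrane protein of cytotoxic granules that takes part in granule release. It lies on chromosome 7 and was measured by 2 probes. In the RefSeq promoter table (GRCm38.p6) its start region, from 250 bases before to 50 bases after the annotated start, is chr7:43436888-43437187 on the plus strand. It is shown because Nkg7 was the member with the largest called difference, with the letters TGTGGT, the core that RUNX factors recognise, in capitals on either strand (ACCACA is its reverse complement).

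Nkg7 promoter: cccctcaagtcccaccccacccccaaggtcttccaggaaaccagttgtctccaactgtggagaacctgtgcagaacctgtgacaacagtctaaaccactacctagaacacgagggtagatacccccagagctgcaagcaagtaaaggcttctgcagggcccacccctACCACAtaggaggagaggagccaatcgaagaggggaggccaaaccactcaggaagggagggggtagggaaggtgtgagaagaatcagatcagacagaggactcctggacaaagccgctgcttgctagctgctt

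At the brighter probe (A_55_P2009582), which stood for the gene in the test, wild-type arrays 1 to 4 read 0.92, 1.14, 1.02 and 0.78. Knockout arrays 1 to 3 read 1.94, 2.08 and 2.86. Every knockout array was above every wild-type array, and knockout array 3 was the highest. The means were 0.96 ± 0.15 (SD, n = 4) and 2.30 ± 0.49 (SD, n = 3), or 1.95-fold and 4.92-fold over the reference RNA. Nkg7 was thus 2.52-fold higher in the knockout (log2 difference 1.33, SE 0.2, 95% interval 0.89 to 1.78, limma adjusted p = 0.00407). On slide 1 alone the difference was 1.17, on slide 2 alone it was 1.56, and a slide block in the model gave 1.39 (limma adjusted p = 0.035). Without knockout array 3 it was 1.05 (limma adjusted p = 0.00119).

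The second Nkg7 probe (A_51_P499195) read 2.02, 1.96, 2.12 and 1.85 on wild-type arrays 1 to 4 and 3.54, 3.71 and 4.35 on knockout arrays 1 to 3. Fitted over all 30292 tested probes, of which 7.47% were called, its difference was 1.88 (SE 0.17, 95% interval 1.49 to 2.27, 3.68-fold, limma adjusted p = 0.000293). Both probes therefore gave the same order of groups with no overlap.

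The 2 probes differed in their reference channel. At the second, the green signal was above background on 1 of 4 wild-type and on all 3 knockout arrays, with log2 levels of 6.72, 6.91, 6.86 and 6.71 in wild type and 7.37, 7.83 and 8.37 in knockout, although the same reference RNA was on every array. That difference of 1.06 (SE 0.19) was not called (limma adjusted p = 0.314 over all 30292 tested probes), although the groups did not overlap. In the gene fit, where the brighter probe stands for Nkg7, 0.0395% of all tested genes were called in the reference channel. With the log ratio of the scanner software in place of normexp and loess, the second probe read 5.38, 5.29, 4.99 and 3.77 in wild type and 4.84, 4.86 and 5.00 in knockout, a difference of 0.04 with overlapping groups. At the brighter probe, where the reference was above background on every array, the scanner's ratio gave a difference of 1.28 (limma adjusted p = 0.0146). The fold of Nkg7 is therefore read here from the brighter probe.

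The sample channel was also read as a level. It was taken after normalization steps that use both dyes, so it is not independent of the green signal. At the brighter probe its log2 level was 10.76, 10.72, 10.69 and 10.45 on wild-type arrays 1 to 4 and 11.67, 12.06 and 12.59 on knockout arrays 1 to 3. At the second it was 8.74, 8.88, 8.97 and 8.56 in wild type and 10.91, 11.53 and 12.72 in knockout. Neither probe's groups overlapped. The sample channel was 2.74-fold higher in the knockout at the brighter probe and 7.65-fold higher at the second (limma adjusted p = 0.00478 and 0.0033 over all probes). In the sample channel alone 6.56% of all tested genes were called.

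**Figure D2:**
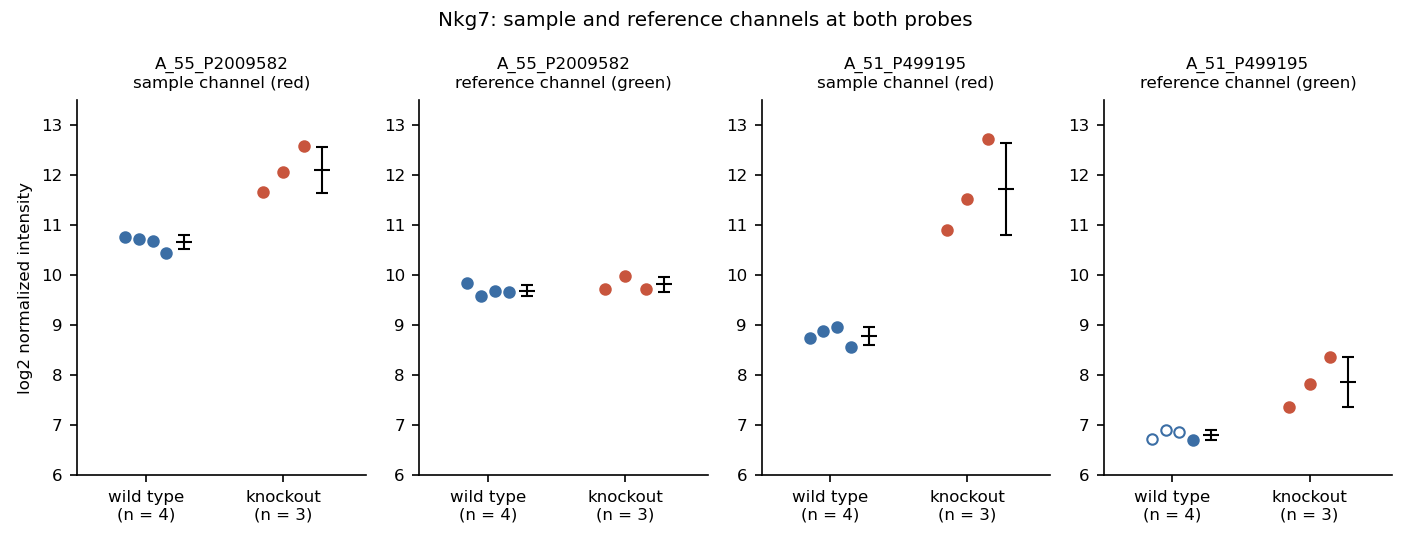
Log2 normalized intensity of the sample (red dye) and reference (green dye) channels at both Nkg7 probes, 1 point per array, with the mean and SD of 4 wild-type and 3 knockout arrays. The sample channel is higher on all 3 knockout arrays at both probes. The reference channel of A_51_P499195 lies near background in wild type (array 4 filled, the others open) and runs from 7.37 to 8.37 in knockout.

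Ctsw encodes cathepsin W, a cysteine protease found in NK cells and cytotoxic T cells. It lies on chromosome 19 and has 1 probe, A_55_P2021981. Wild-type arrays 1 to 4 read 0.89, 1, 1.28 and 1.35, and knockout arrays 1 to 3 read 1.64, 2.07 and 1.96. The groups did not overlap, and the gap was narrowest between wild-type array 4 and knockout array 1, which shared slide 1. Ctsw was 2.19-fold over the reference in wild type and 3.7-fold in knockout, a 1.69-fold higher level (log2 difference 0.76, SE 0.14, 95% interval 0.44 to 1.08, limma adjusted p = 0.0112). On slide 1 alone it was 0.29 and on slide 2 alone 1.13. The call was lost with slide as a block (0.77, limma adjusted p = 0.141), and it just missed the threshold with the scanner's log ratio (0.74, limma adjusted p = 0.0537).

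Gzmb to Gzme and Gzmf belong to 1 protease cluster on chromosome 14. In the annotation the granzymes there follow the order Gzme, Gzmd, Gzmg, Gzmn, Gzmf, Gzmc and Gzmb. Granzyme B cleaves after aspartate and activates caspases, and granzymes C to G are rodent duplicates with a less defined part in killing. The start regions of Gzmd and Gzme had identical letters in 93.4% of aligned columns, and those of Gzmb and Gzme in 45.8%. The regions of Gzma and Nkg7, on different chromosomes, reached 45.9%. They are shown beside each other because Gzme was called while its near-copy Gzmd was not measurable, and Gzmb was far above the reference RNA on every array. The regions are chr14:56120576-56120875 for Gzme, chr14:56132544-56132843 for Gzmd and chr14:56262285-56262584 for Gzmb (GRCm38.p6, all on the minus strand and printed 5′ to 3′ along the gene, capitals as above).

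Gzme promoter: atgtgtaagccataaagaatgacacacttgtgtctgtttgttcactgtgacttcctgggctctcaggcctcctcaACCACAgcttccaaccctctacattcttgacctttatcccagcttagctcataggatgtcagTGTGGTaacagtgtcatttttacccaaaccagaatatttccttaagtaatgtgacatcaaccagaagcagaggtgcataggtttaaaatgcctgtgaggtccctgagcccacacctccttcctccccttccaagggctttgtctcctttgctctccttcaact

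Gzmd promoter: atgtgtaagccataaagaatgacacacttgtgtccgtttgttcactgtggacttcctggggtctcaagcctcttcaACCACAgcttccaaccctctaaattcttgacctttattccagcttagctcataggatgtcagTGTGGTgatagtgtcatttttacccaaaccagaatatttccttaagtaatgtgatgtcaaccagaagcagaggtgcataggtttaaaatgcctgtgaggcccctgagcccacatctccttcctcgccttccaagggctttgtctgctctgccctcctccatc

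Gzmb promoter: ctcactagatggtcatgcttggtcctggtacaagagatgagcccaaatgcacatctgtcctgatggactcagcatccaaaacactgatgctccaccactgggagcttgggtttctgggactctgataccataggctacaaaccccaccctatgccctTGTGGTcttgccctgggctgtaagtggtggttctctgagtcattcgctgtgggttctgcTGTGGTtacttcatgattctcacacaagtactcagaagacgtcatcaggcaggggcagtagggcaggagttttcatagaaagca

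Gzme had 2 probes. At A_55_P1971010 wild-type arrays 1 to 4 read 0.39, 0.16, 0.27 and 0.13, and knockout arrays 1 to 3 read 0.57, 0.66 and 0.62. All 3 knockout arrays lay above the 4 wild-type arrays, all of them close to the reference level (1.18-fold and 1.53-fold over it). The difference was 1.3-fold (log2 0.38, SE 0.09, 95% interval 0.18 to 0.57, limma adjusted p = 0.0308). In the sample channel alone it was 0.44 (limma adjusted p = 0.0184). This probe was above background on every array but dim, with sample-channel means of 6.88 in wild type and 7.32 in knockout. The Gzmd probe, above background on no array, had means of 6.19 and 6.23.

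The Gzme call was the least stable of the 3. It was lost with slide as a block (0.33, limma adjusted p = 0.262), where the differences were 0.44 within slide 1 and 0.24 within slide 2. Among the 7 fits that left out 1 array it was kept in 1, that without wild-type array 1 (limma adjusted p = 0.0255), and the other 6 gave adjusted p-values up to 0.101. The second Gzme probe, A_55_P1971009, was above background on no array, so it gives no measured difference. Probe sequences were not used here, so whether a probe also reads a near-identical granzyme of the cluster was not tested, and the values of Gzmc to Gzmf are uncertain in that respect.

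Gzmd was above background on no array. Its probe read 0.09, 0.13, 0.24 and -0.08 in wild type and 0.33, 0.26 and 0.14 in knockout, which are values of a dim spot rather than a level. Gzmf was above background on knockout array 2 only. It read -0.01, -0.15, -0.07 and -0.04 in wild type and 0.02, 0.19 and 0.36 in knockout, so the groups did not overlap, but with 1 array above background it was not tested. The 2 remaining granzymes of the cluster, Gzmg and Gzmn, were above background on no array.

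Gzmb, by contrast, was high on every array of both genotypes. Wild-type arrays 1 to 4 read 6.08, 6.57, 6.23 and 5.77, and knockout arrays 1 to 3 read 6.57, 5.89 and 5.84. The groups overlapped throughout, at 71.6-fold over the reference RNA in wild type and 68.7-fold in knockout. The difference was -0.06 (SE 0.22, 95% interval -0.55 to 0.43, limma adjusted p = 0.927), an interval that leaves room for a moderate change in either direction. Within slide 1 it was 0.81 and within slide 2 it was -0.21.

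Gzmc read 4.17, 4.55, 5.35 and 4.59 on wild-type arrays 1 to 4 and 3.94, 4.05 and 4.87 on knockout arrays 1 to 3. Both groups were far above the reference and they overlapped, with wild-type array 3 the highest. The difference of -0.38 (SE 0.29, 95% interval -1.03 to 0.27) did not pass the test (limma adjusted p = 0.558). It was -0.65 within slide 1 and 0.29 within slide 2. Its reference signal was above background on all 4 wild-type arrays and on 1 knockout array, so no fold over the reference is given. The scanner's own log2 ratio had means of 6.91 in wild type and 6.63 in knockout, against 4.67 and 4.29 here.

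Gzma and Gzmk lie beside each other on chromosome 13 and encode the tryptases granzyme A and granzyme K, which cleave after basic residues. Gzma read 8.16, 8.70, 8.94 and 7.4 on wild-type arrays 1 to 4 and 9.11, 8.69 and 8.94 on knockout arrays 1 to 3. It was at a high ratio on every array, with wild-type array 4 the lowest and the others overlapping. Its means were 8.30 ± 0.68 (SD, n = 4) and 8.91 ± 0.21 (SD, n = 3), which is 316-fold and 481-fold over the reference RNA.

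The Gzma difference was 0.61 (SE 0.31, 95% interval -0.1 to 1.32) and did not pass the test (limma adjusted p = 0.339). Wild-type array 4 set much of its size: without it the difference was 0.31 (limma adjusted p = 0.509), and within slide 1, where it is the only wild-type array, 1.71, against 0.65 within slide 2. A slide block in the model gave 1.1 (limma adjusted p = 0.0808). Quantile normalization of the log ratios was the single alternative that called Gzma higher (1.22, limma adjusted p = 0.0419). No spot of the 12 probes was saturated in the sample channel. The start region of Gzma is chr13:113100932-113101231 (GRCm38.p6, minus strand) and is shown because the RUNX letters lie close to the annotated start.

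Gzma promoter: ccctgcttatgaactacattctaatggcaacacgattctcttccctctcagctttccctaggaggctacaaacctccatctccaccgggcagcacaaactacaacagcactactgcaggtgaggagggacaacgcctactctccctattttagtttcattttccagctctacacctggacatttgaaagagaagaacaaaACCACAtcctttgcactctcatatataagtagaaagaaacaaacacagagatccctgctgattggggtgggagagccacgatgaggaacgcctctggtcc

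Gzmk read 0.15, 0.27, 0.11 and 0.11 in wild type and 0.03, 0.15 and 0.12 in knockout. These values lie near the level of the reference RNA, and the groups overlapped (difference -0.06, SE 0.08, 95% interval -0.24 to 0.12, limma adjusted p = 0.756). The neighbouring tryptase genes thus differed in their ratio to the same reference RNA, with Gzma far above its own reference signal and Gzmk close to it.

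Prf1, the perforin gene on chromosome 10, was near the reference level as well. Wild-type arrays 1 to 4 read -0.07, 0.19, 0 and -0.01, and knockout arrays 1 to 3 read -0.05, 0.17 and 0.37. The groups overlapped, and the highest value was on knockout array 3. The difference was 0.13 (SE 0.11, 95% interval -0.12 to 0.38, limma adjusted p = 0.604), with -0.03 within slide 1 and 0.33 within slide 2. Its probe was above background in both channels on every array.

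**Figure D3:**
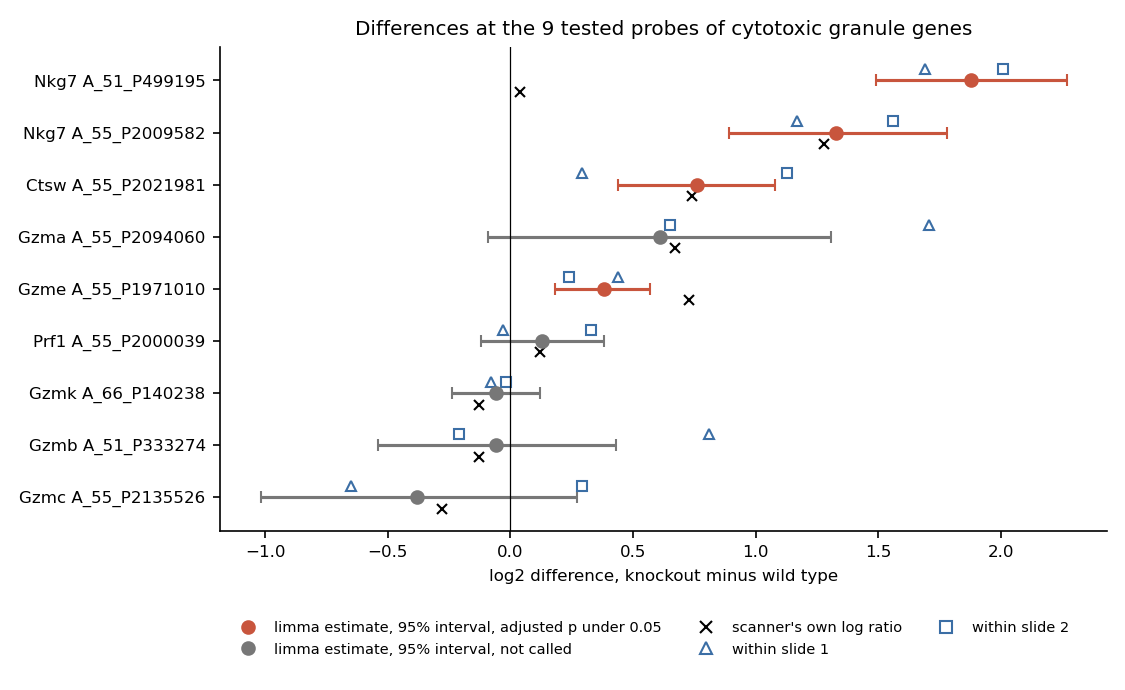
Log2 difference, knockout minus wild type, at the 9 tested probes, with the 95% interval of the limma fit over all tested probes (red, adjusted p under 0.05; grey, not called), the difference of the scanner's own log ratios (crosses) and the differences within slide 1 (triangles) and slide 2 (squares). The intervals of both Nkg7 probes, Ctsw and Gzme lie above 0, the scanner's ratio is near 0 at A_51_P499195, and the slides stand on opposite sides of 0 for Gzmb, Gzmc and Prf1.

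The start regions were searched on both strands for 5 short motifs of factors with known parts in cytotoxic genes or of GFI1 itself. RefSeq held a start region for 9 of the 10 genes, Ctsw being the one without an entry. TGTGGT (RUNX) was present in 8 of the 9, all but Gzmk, against 16.8% of 32851 start regions of the same length. The promoters of Gzmc, Gzmd, Gzme and Gzmf are related copies (73.5% to 93.4% identical letters), so their matches are not independent. The Gzmb promoter shared 43.6% to 48% with these. Counted in bases from the annotated start, with bases before it negative, it began at -50 in Gzma, at -93 and -34 in Gzmb, at -83 in Nkg7 and at -130 in Prf1. AATC, the GFI1 core, was present in 6 of the 9, against 73.1% of all start regions, and AATCAC in 1 of the 9 (Gzmf), against 10.4%. Among the 3 genes called higher, Nkg7 had 2 AATC matches and Gzme had none.

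TTCNNNGAA, the palindrome of STAT factors, matched in 2 of the 9 (Gzmb and Nkg7, 8.3% of all start regions), and GTGTGA, a core of T-box sites, in 3 (Gzmb, Gzmk and Nkg7, 14.5% of all). AATC is contained in AATCAC, so their matches overlap. A match shows only that these letters are in the window.

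Genes that serve the same granules were then followed. Of 11 other granzymes and proteases of the granzyme B locus, 6 were tested and limma called none, with 0 at an unadjusted p under 0.05. Gzmm, which encodes the lymphocyte granzyme M, differed by 0.17 (limma adjusted p = 0.461). Mcpt2 and Mcpt9 were above background on no array and Mcpt8 on 1 wild-type array. Ctsg, Mcpt1, Mcpt4, Cma1 and Cma2, which encode proteases of neutrophils and mast cells, differed by between -0.18 and 0.03.

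Granule maturation and release was represented by 28 tested genes, with a median of -0.09. Limma called 2 of them higher and 3 lower, against 3.27% and 4.23% of all tested genes. At an unadjusted p under 0.05, 3 were higher and 7 lower, against 2286 and 2670 of all 25346 tested genes. The 2 genes called higher encode lysosomal proteases. Ctsh, for the aminopeptidase cathepsin H, rose 3.17-fold (wild type 2.41, knockout 4.08, limma adjusted p = 0.00168, and 0.0101 with slide as a block). Ctsl, for cathepsin L, rose 1.89-fold (limma adjusted p = 0.0251).

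The genes called lower include the carrier and the activator of granzymes. Srgn, the serglycin core protein on which granzymes are stored, fell 1.75-fold from 5.75 to 4.94 (limma adjusted p = 0.00818). Ctsc, the activator of granzyme precursors, fell 1.4-fold (limma adjusted p = 0.0314). Igf2r, a mannose 6-phosphate receptor that delivers enzymes to lysosomes, fell 1.63-fold (limma adjusted p = 0.0284). With slide as a block Ctsl (0.219), Srgn (0.106), Ctsc (0.211) and Igf2r (0.0953) had adjusted p-values over the threshold. The other genes of this list were not called, the release machinery among them: Rab27a differed by 0.26 (limma adjusted p = 0.201), Unc13d by -0.05 (limma adjusted p = 0.875) and Stx11 by 0.30 (limma adjusted p = 0.285).

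Of 6 tested inhibitors of granzymes and related proteases, 1 was called higher and 1 lower, against 3.27% and 4.23% of all tested genes. Serpinb6b rose 1.56-fold (limma adjusted p = 0.0162) and Serpinb6a, an inhibitor of cathepsin G and related enzymes, fell 1.42-fold (limma adjusted p = 0.00915). Both lost the call with slide as a block (0.156 and 0.155). Serpinb9, the serpin that inhibits granzyme B, differed by 0.18 (limma adjusted p = 0.565), and Serpinb9b was above background on no array.

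The 4 death ligands of the TNF family, which act through receptors on the target cell, were all tested. Tnf rose 3.83-fold (wild type 1.24, knockout 3.18, limma adjusted p = 0.00477, and 0.0421 with slide as a block). Lta, for lymphotoxin alpha, rose 7.47-fold, with wild-type values spread widely (3.58 ± 1.66, SD, n = 4, limma adjusted p = 0.0423, and 0.36 with slide as a block). Tnfsf10, for TRAIL, fell 2.79-fold (limma adjusted p = 0.00564, and 0.0739 with slide as a block). Fasl was above background on 1 wild-type and 2 knockout arrays and differed by 0.29 (limma adjusted p = 0.12).

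Among 17 tested transcription factors with known parts in cytotoxic programmes, 1 was called higher and 5 lower, with a median of -0.15. Of all tested genes 3.27% were called higher and 4.23% lower. Irf4 rose 6.43-fold (limma adjusted p = 0.000151). Stat4, which carries the IL-12 signal, fell 1.8-fold (limma adjusted p = 0.00744, and 0.0279 with slide as a block). Bhlhe40, Batf, Stat3 and Runx3 fell by 0.89, 0.47, 0.57 and 0.40 on the log2 scale, with limma adjusted p-values of 0.00307, 0.00535, 0.0166 and 0.0179, and each of these 4 lost the call with slide as a block. The T-box factors Tbx21 (0.82, limma adjusted p = 0.0805) and Eomes (0.31, limma adjusted p = 0.0995) and the repressor Prdm1 (0.18, limma adjusted p = 0.412) did not pass the test.

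**Figure D4:**
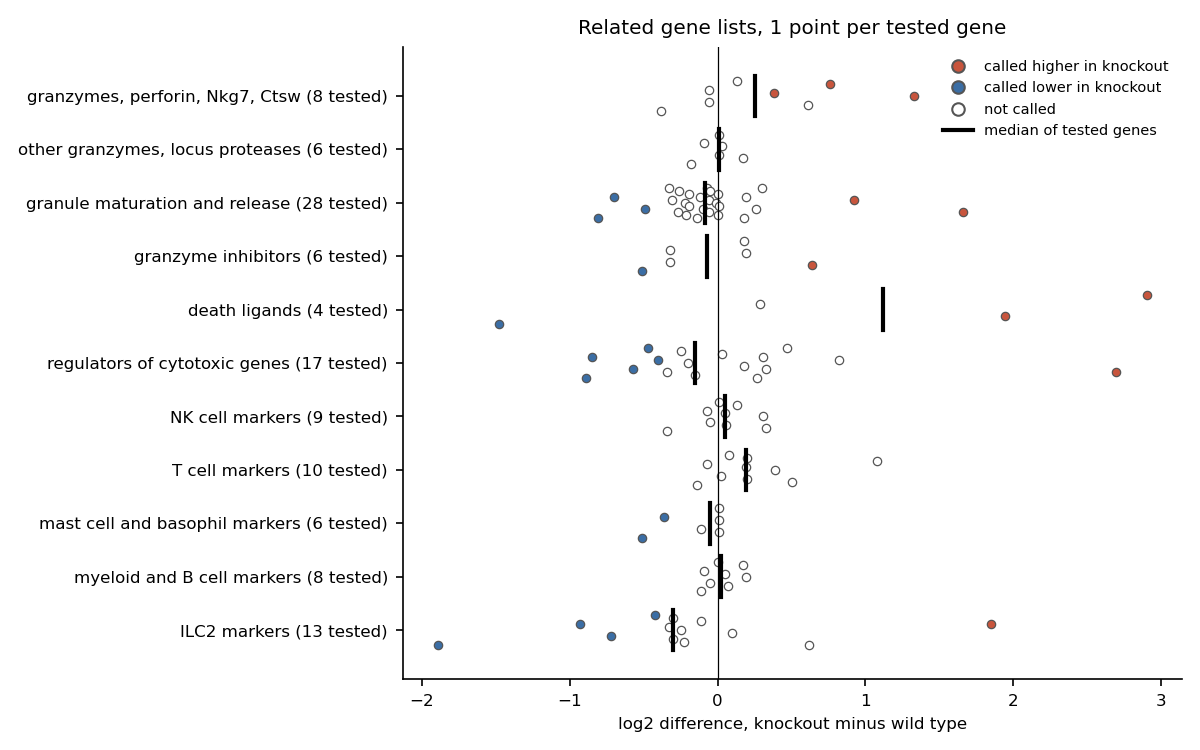
Log2 difference, knockout minus wild type, of every tested gene in the cytotoxic granule set and 10 related lists, 1 point per gene, red where called higher, blue where called lower and open where not called, with a bar at each list's median. Of the cytotoxic granule genes 3 of 8 are called higher, against 3.27% of all tested genes. None of 9 NK, 10 T cell, and 8 myeloid and B cell markers is called, against 7.5% of all tested genes in either direction. Called in either direction are 3 of 4 death ligands, 6 of 17 regulators, 5 of 13 ILC2 markers and 2 of 6 mast cell and basophil markers. So are 5 of 28 granule maturation and release genes and 2 of 6 granzyme inhibitors.

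Markers of other cells that carry granules were read beside these results. Of 15 NK cell markers with a probe, 5 to 10 lay above background on a wild-type array and 8 to 10 on a knockout array, and their summed sample-channel signal ran from 2500 to 3150 in wild type and from 2750 to 3150 in knockout. Of these markers Ncr1, Klrk1, Klra1 and Klra8 were above background on no array. Klrb1c, Klre1, Klra9, Eomes and Cd244a were above background on all 4 wild-type and all 3 knockout arrays. Itga2, which encodes CD49b, was above background on 0 wild-type and 2 knockout arrays and was not tested. Limma called none of 9 tested NK markers. At an unadjusted p under 0.05, 1 (Eomes) was higher, as were 2286 of all 25346 tested genes. Klrb1c differed by 0.06 (limma adjusted p = 0.807) and Klrd1 by 0.33 (limma adjusted p = 0.257).

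Of 12 T cell markers, 10 to 11 lay above background on a wild-type array and 10 to 12 on a knockout array, with a summed signal of 11600 to 20400 in wild type and 12200 to 20600 in knockout. Limma called none of the 10 tested. At an unadjusted p under 0.05, 3 (Cd3d, Cd5 and Cd8a) were higher, as were 2286 of all 25346 tested genes. The median difference over the 10 T cell markers was 0.20, close to the 0.25 of the cytotoxic granule genes. Cd3d differed by 1.08 (limma adjusted p = 0.222), Cd3e by 0.39 (limma adjusted p = 0.279) and Cd3g by -0.07 (limma adjusted p = 0.948). Within slide 1 and slide 2 the differences were -0.85 and 1.70 for Cd3d, 0.14 and 0.50 for Cd3e, 0.08 and 0.43 for Cd5, and 0.36 and 0.09 for Cd8a. Trat1 was above background on 0 wild-type and 2 knockout arrays. The part of NK cells and T cells in the granule gene values was not tested.

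Of the mast cell and basophil markers 6 were tested, Cpa3 (-0.51, limma adjusted p = 0.0402) and Hdc (-0.36, limma adjusted p = 0.0188) were called lower, and Ms4a2 and Fcer1a were above background on no array. Cpa3 and Hdc lost the call with slide as a block (limma adjusted p = 0.249 and 0.219) and in the sample channel alone (0.185 and 0.168). Their summed signal over all markers ran from 1360 to 1640 in wild type and from 1370 to 1410 in knockout. Limma called none of 8 tested myeloid and B cell markers, with 0 at an unadjusted p under 0.05, and their summed signal ran from 3880 to 4100 in wild type and from 4060 to 4160 in knockout. Of the 13 ILC2 markers, Il17rb was called higher and Gata3, Il1rl1, Ly6a and Areg lower. The summed signal of the 13 ran from 821000 to 1130000 in wild type and from 595000 to 754000 in knockout, without overlap. Icos and Il5, not called by ratio, were lower in the sample channel (-0.68, limma adjusted p = 0.0141, and -0.78, limma adjusted p = 0.0346). With slide as a block Gata3 (limma adjusted p = 0.138) and Areg (0.242) lost the call.

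The calls were compared across 26 alternative tests of the same arrays, which are not independent of each other. The scanner's log ratio and the series value table among them hold nearly the same values. Nkg7 was called higher in all 26, with differences between 0.99 and 1.61 and adjusted p-values from 0.000972 to 0.035. Ctsw was called in 22 of 26, missing the threshold with plain background subtraction, the scanner's log ratio, the series value table and the slide block. Gzme was called in 13 of 26. Gzmb, Gzmc, Gzmk and Prf1 were called in none of them. With wild-type array 4 and knockout array 3 both left out, the differences were 0.99 for Nkg7 (limma adjusted p = 0.0034), 0.80 for Ctsw (limma adjusted p = 0.0362) and 0.34 for Gzme (limma adjusted p = 0.161).

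**Figure D5:**
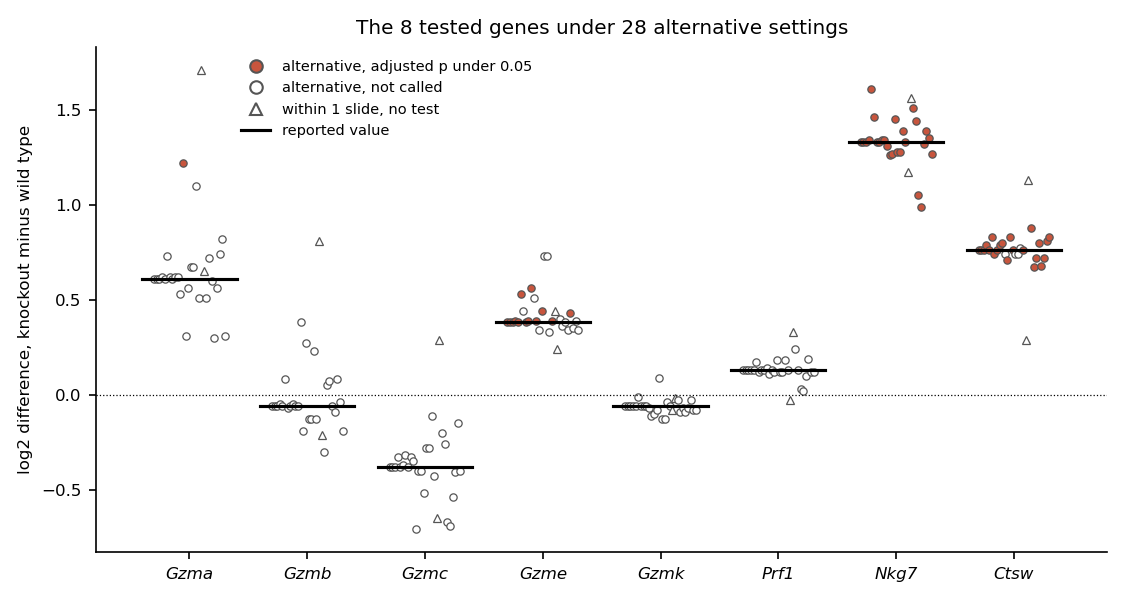
Log2 difference, knockout minus wild type, of the 8 tested genes under 28 alternative settings, red circles where the adjusted p is under 0.05, open circles where it is not, triangles for values within 1 slide that have no test, and a bar at the reported value. All circles of Nkg7 are red, and the values of Gzmb, Gzmc, Gzmk and Prf1 hold no red circle.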

How the data were processed

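The deposited scanner files hold median red and green intensity per spot on a linear scale, and a log10 ratio of red over green, from Agilent Feature Extraction 11.0.1.1 per the file headers (10.7.3.1 per the submitters' processing notes). The series value table, also deposited, gives log2 ratios that equal it, once converted to log2, to within 0.0005. It is unswapped: red is the sample on every array, per the labels.

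Here, 2597 spots flagged as outliers or with uneven local background were left out, and 0 of them were spots of the 12 cytotoxic granule probes. Signals were corrected with normexp (offset 50) and normalized within arrays by loess in limma 3.58.1 (R 4.3.3). The normexp offset draws the ratios of dim probes towards 0. Mean signals were not used here. Accessions were looked up in a RefSeq table (GRCm38.p6), which named 26581 of 39429 probes. The array design uses mm9, so the start regions come from RefSeq and no array coordinate is given.

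A gene was represented by its brightest probe and tested if the sample signal was well above background on 3 or more arrays, with 2 or more values per group. Groups were compared with lmFit and eBayes, without a block. The channels were read after loess and Aquantile, which use both dyes, so "sample channel alone" means a red level that still depends on the green signal. Motifs and alignments used Python 3.11.15 and Biopython 1.88, and figures matplotlib 3.10.9. Only the limma fit was tested on simulated data, with noise added independently to normalized values. That test does not cover background correction, loess, probe choice or slide effects. The labels describe each sample as a pool of mice, and p-values measure the spread between these samples.

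The members and the lists were chosen with earlier results of these data known. Named genes were all members and their probes, the other proteases of the granzyme B locus, called genes and the leading genes of each list, and the nearest tested neighbours of each member locus. Some others (Rab27a, Unc13d and Stx11) were named after their values were seen. Alternatives covered background correction, normalization, the ratio's source, filters, flags, probe choice, variance model, slide, replicate number and each array left out.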

Additional observations from a re-analysis of the deposited data

How the results depend on the processing

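Under 26 alternative tests and within slides 1 and 2, Nkg7, Ctsw and Gzme stayed higher in the knockout. The count of all genes called was 995 with plain background subtraction, 478 with slide as a fixed block, 1081 with the replicate number as a block and 1129 with wild-type array 4 and knockout array 3 left out together, against 1900. Of the cytotoxic granule genes 1 (Nkg7) was called with plain subtraction, with the scanner's log ratio, with the series value table and with slide as a fixed block. Leaving out 1 array at a time gave 1262 to 1898 genes in all and 2 to 3 of the set; the count was 1265 without wild-type array 4 and 1262 without knockout array 2. Median centring in place of loess gave 898 higher and 722 lower calls, against 829 and 1071. The median difference of the set ran from 0.16 to 0.39. Correlations of same-numbered deviations were -0.0314, 0.239 and 0.0917, and those of differently numbered ones ran from -0.265 to 0.122. These are too few to decide whether the replicate numbers pair the samples, and this was not tested. With the replicate block Nkg7 (limma adjusted p = 0.0226) and Ctsw (0.0166) were called and Gzme (0.153) was not. Slide as a random block had a consensus correlation of -0.135. Signal near background limits Gzmd, Gzmf and the second probes of Gzme and Nkg7. The Gzme probe that carries the call was above background but dim as well. The cause of the lost calls was not tested.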

Other observations

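The tested genes next to each locus were read as well. Those beside Nkg7 (Siglecg, -0.05, limma adjusted p = 0.83, and Cldnd2, 0.06, limma adjusted p = 0.759) and beside the granzyme B cluster (Ctsg, -0.09, limma adjusted p = 0.811, and Atp12a, -0.04, limma adjusted p = 0.886) were not called. On both sides of the Gzma and Gzmk pair the neighbours were called higher in the knockout. Esm1, which encodes the secreted proteoglycan endocan, rose 6.26-fold (log2 difference 2.65, SE 0.33, limma adjusted p = 0.00168, and 0.00895 with slide as a block). Gpx8, for a glutathione peroxidase of the endoplasmic reticulum, rose 1.77-fold (0.82, SE 0.11, limma adjusted p = 0.00281, and 0.0196 with slide as a block). Gzma and Gzmk between them were not called. Beside Ctsw, Efemp2, which encodes the extracellular matrix protein fibulin-4, fell 1.93-fold (log2 difference -0.95, SE 0.11, limma adjusted p = 0.00104, and 0.0259 with slide as a block), while Fibp on the other side differed by 0.15 (limma adjusted p = 0.577). Beside Prf1, Adamts14 differed by -0.34 (limma adjusted p = 0.609) and Pald1 by 0.35 (limma adjusted p = 0.0835).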
